A study of Mus musculus with 12 samples.

Results

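Simple keratins and epithelial junction genes were described across 12 libraries of clones from the Fallopian tube of mice. The group held 10 genes of the 35509 in the table, found by symbol: the keratins Krt7, Krt8, Krt18 and Krt19, the adhesion molecules Epcam and Cdh1, the claudins Cldn3, Cldn4 and Cldn7, and the tight junction scaffold Tjp1. Expression was measured by RNA sequencing in 6 large-clone and 6 small-clone libraries, a pair from each of 6 mice. All the mice were labelled wild type, carried MADM RG and GR alleles on a mixed background, were untreated and were 4 weeks old. MADM (mosaic analysis with double markers) colours single cells and their descendants by recombination between chromosomes, so that a clone can be recognised. Each library pooled 200 cells cut by laser from the distal region of the tube. The clone sizes that divided large from small, and the Cre line that started the marking, are not given in the sources used here. The comparison asked how expression differed between clones that had grown large and clones that had stayed small.

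Keratins are intermediate filament proteins that assemble as pairs of a type I and a type II chain. Krt8 and Krt7 are type II chains and Krt18 and Krt19 type I chains, and together they form the filaments of simple, single-layered epithelia such as the lining of the oviduct. Cdh1 (E-cadherin) joins neighbouring epithelial cells at adherens junctions, Epcam is an epithelial adhesion molecule that is found in complexes with Cldn7, claudins form the strands that seal tight junctions, and Tjp1 (ZO-1) ties those strands to actin.

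The bases just upstream of 5 of the genes are shown because Krt7, Krt8, Krt18 and Cldn3 are 4 of the 5 genes whose levels separated the libraries below, and Epcam had the lowest p of the group in the comparison of clone sizes. Promoter sequences of RefSeq (GRCm38.p6) matched 8 of the 10 genes by symbol, all but Krt19 and Cdh1. Each run is the 250 bases before the start site, 5′ to 3′ on the strand of the gene. Capitals mark matches, on either strand, to CACCTG (the E-box bound by Snail and Zeb proteins, which repress epithelial genes) or GGGCGG (the GC box). The windows are chr15:102004343-102004592 (minus strand) for Krt8, chr15:102027966-102028215 (plus strand) for Krt18, chr15:101412153-101412402 (plus strand) for Krt7, chr17:87635729-87635978 (plus strand) for Epcam and chr5:134985964-134986213 (plus strand) for Cldn3.
Krt8: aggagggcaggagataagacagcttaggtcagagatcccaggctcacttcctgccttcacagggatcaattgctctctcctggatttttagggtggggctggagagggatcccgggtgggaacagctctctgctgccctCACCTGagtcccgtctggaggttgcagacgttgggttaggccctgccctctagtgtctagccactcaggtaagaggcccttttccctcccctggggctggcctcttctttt
Krt18: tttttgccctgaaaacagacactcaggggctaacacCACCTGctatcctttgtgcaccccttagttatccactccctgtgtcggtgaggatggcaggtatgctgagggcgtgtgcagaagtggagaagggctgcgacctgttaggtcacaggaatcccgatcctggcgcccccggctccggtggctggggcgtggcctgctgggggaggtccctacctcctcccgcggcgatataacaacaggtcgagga
Krt7: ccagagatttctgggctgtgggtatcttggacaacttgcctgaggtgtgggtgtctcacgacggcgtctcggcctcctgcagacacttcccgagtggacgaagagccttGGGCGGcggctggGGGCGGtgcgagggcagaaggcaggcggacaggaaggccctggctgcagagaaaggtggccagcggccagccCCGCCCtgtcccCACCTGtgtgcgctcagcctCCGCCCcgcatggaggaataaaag
Epcam: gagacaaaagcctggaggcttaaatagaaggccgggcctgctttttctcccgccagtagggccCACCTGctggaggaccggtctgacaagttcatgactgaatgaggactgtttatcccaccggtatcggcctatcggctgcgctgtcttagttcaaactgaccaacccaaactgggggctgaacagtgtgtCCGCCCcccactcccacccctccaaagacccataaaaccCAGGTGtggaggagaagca
Cldn3: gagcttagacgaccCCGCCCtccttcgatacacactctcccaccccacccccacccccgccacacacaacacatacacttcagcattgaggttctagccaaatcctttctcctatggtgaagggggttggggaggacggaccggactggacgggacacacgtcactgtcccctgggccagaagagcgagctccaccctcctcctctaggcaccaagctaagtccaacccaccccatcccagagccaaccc

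The E-box letters CACCTG were found upstream of 6 of the 8 genes (Krt7, Krt8, Krt18, Epcam, Cldn4 and Cldn7), against 17.2% of all 32851 windows of the same length. Upstream of Epcam they occurred 187 and 19 bases before the start, and upstream of Krt8, Krt18 and Krt7 at 111, 214 and 44 bases. The GC box was found at 6 of the 8 genes (Krt7, Epcam, Cldn3, Cldn4, Cldn7 and Tjp1), against 32.7% of all windows. The AP-1 letters TGANTCA were found at Cldn4 alone of the 8, against 6.75% of windows. Neither the TATA box (TATAAA, in 12.4% of windows) nor the Grainyhead-like letters AACCGGTT (0.116%) was found at any of the 8. These matches describe letters, not binding. GC content was 51.2 to 66% in the windows of these genes, with a median of 52.4% over all windows. Its part in the matches was not tested. Matches were counted by gene here and by window over all, and Cldn7 had more than a single window. In the coordinates of the table, Krt8 and Krt18 lie 23697 bases apart on chromosome 15, and Cldn4 and Cldn3 lie 39279 bases apart on chromosome 5.

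Library totals ran from 3057979 to 4227129 expected counts, and 12090 to 18889 genes had a count. The libraries fell into 2 classes by their chemoreceptor share, the percent of counts that fell on genes for olfactory, vomeronasal, taste and trace-amine receptors. This share was 0.843 to 4.17% in 7 libraries and 7.87 to 11.03% in 5, namely the large clones of mice 1, 2 and 6 and the small clones of mice 3 and 6. Ribosomal protein genes took 14.2 to 19.2% of counts in the 7 lower-share libraries and 1.71 to 8.54% in the 5 higher-share ones. The 2 libraries of mice 4, 5 and 6 fell in the same class, and those of mice 1, 2 and 3 in different ones.

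The tissue label was set beside the defining markers. Ovgp1, the oviduct glycoprotein, was at 354 to 3629 CPM (the usual count rate, on library sizes scaled by TMM) in large clones and 350.3 to 7829 in small clones. Pax8, a transcription factor of secretory cells, averaged 20.7 ± 18.2 CPM (SD, n = 6) in large and 18.8 ± 19.5 in small clones and was at 0 in 2 libraries. Foxj1, the regulator of motile cilia, averaged 3.51 ± 3.09 CPM in large and 8.43 ± 10.8 in small clones.

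By level per kilobase of transcript, the 10 genes covered a wide range, with Krt18 far above its partners. Mean CPM per kilobase over the 12 libraries was 2100 for Krt18, 225 for Krt8, 153 for Cldn3, 126 for Krt19, 29.9 for Cldn7, 27.2 for Krt7, 8.75 for Epcam, 1.65 for Cdh1, 0.566 for Tjp1 and 0.211 for Cldn4. Library SDs were as large as or near many of the means, so neighbours in that order, such as Cldn3 and Krt19 or Cldn7 and Krt7, did not differ beyond their spread. Amplification from poly(A) favours 3′ ends, so the lengths (1259 bases for Cldn3 to 7049 for Tjp1) scale these levels only roughly. All levels below are in CPM, not per kilobase.

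**Figure D1:**
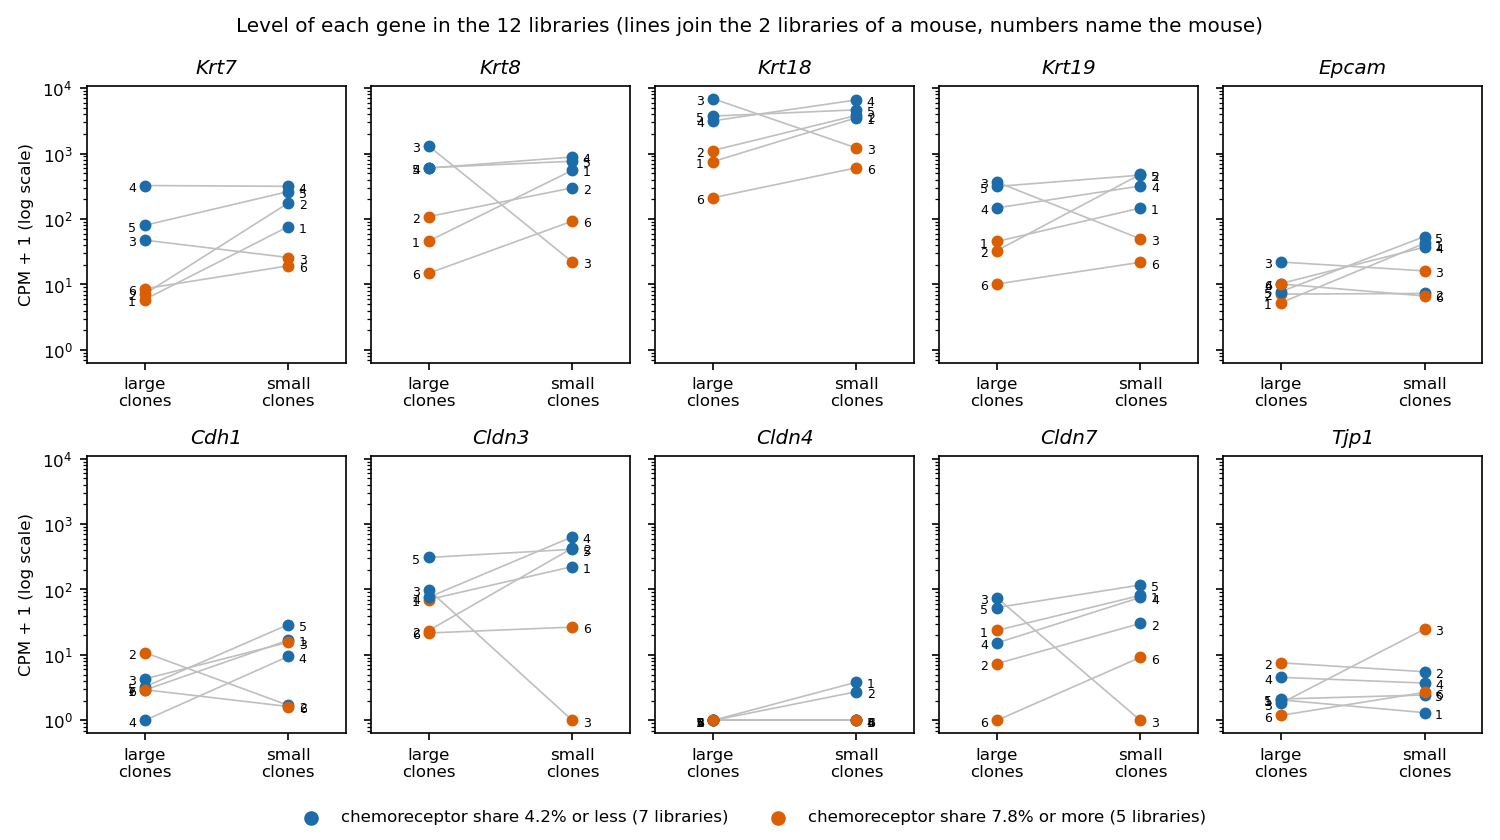
CPM + 1 on a log axis for each of the 10 genes in the 6 large-clone and 6 small-clone libraries. Lines join the 2 libraries of a mouse, numbers name the mouse, and colour gives the class of chemoreceptor share (7 lower, 5 higher). Lines go up from large to small clones for most mice in the keratins, Cldn3 and Cldn7, and go down for mouse 3.

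Krt18, the type I chain that pairs with Krt8, was the most abundant of the genes in every library. In large clones its lowest, median and highest levels were 209.6 CPM (mouse 6), 2131 and 6900 (mouse 3), and in small clones 604 (mouse 6), 3666 and 6578 (mouse 4). The ranges overlapped, and the spread within each clone size was over 10-fold. Within a mouse, Krt18 was lower in large clones in 5 of 6 mice, with mouse 3 the exception. The log2 fold change, large over small clones, was -0.36 (SE 0.78) by the quasi-likelihood test of edgeR, with an unadjusted p of 0.649 and an adjusted p of 0.9998. It was -1.10 without mouse 3, -0.88 with the mouse as a block and -0.11 in a model with the chemoreceptor share as covariate.

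Krt8 was at 45.0 CPM in large and 554 in small clones of mouse 1, at 107.8 and 298 in mouse 2, and at 1301 and 21.1 in mouse 3. It was at 597 and 884 in mouse 4, at 606 and 761 in mouse 5, and at 13.8 and 91.8 in mouse 6. The highest and one of the lowest values of all thus came from the same animal, mouse 3, and in the other 5 mice the large clones were lower. The groups overlapped almost completely, with means of 445 ± 498 CPM (SD, n = 6) in large and 435 ± 355 in small clones. The log2 fold change was 0.03 (SE 0.98, unadjusted p = 0.973, edgeR). It turned to -1.03 with the mouse as a replicate block and to -0.92 without mouse 3, neither of them passing.

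Krt19, the smallest type I keratin, ranged from 9.16 (mouse 6) through a median of 95.5 to 366 CPM (mouse 3) in large clones. In small clones it ranged from 20.8 (mouse 6) through 232 to 481 CPM (mouse 2). It too was lower in large clones in 5 of 6 mice, all but mouse 3, and its log2 fold change was -0.70 (SE 0.90, unadjusted p = 0.447). It was -0.28 without mouse 2, -1.40 without mouse 3 and -0.19 with the share as a covariate. Krt7, a type II keratin of ductal and glandular epithelia, ranged from 4.88 (mouse 1) through 27.1 to 323 CPM (mouse 4) in large clones and from 18.3 (mouse 6) through 125 to 314 (mouse 4) in small clones. It was lower in large clones in 4 of 6 mice, with a log2 fold change of -0.90 (SE 1.04, unadjusted p = 0.401), or -1.73 with the mouse as a block and -1.96 without mouse 4. Values of Krt7 carry a further limit, since its 4094-base transcript shares stretches of 100 or more bases at 90% identity or more with 94 other genes, and its expected counts were not whole in any of the 12 libraries. The keratins thus leaned the same way within most mice, and none passed the test.

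Both the amount and the make-up of the simple keratins varied between libraries. The 4 keratins together took 0.0291 to 0.631% of all counts in large clones and 0.0842 to 0.701% in small clones, and Krt18 alone supplied 74.7 to 92.8% of their counts. Krt8 supplied 1.61 to 15.1%, Krt19 2.53 to 10.1% and Krt7 0.488 to 7.66%. By class of library, the 4 keratins took 0.281 to 0.701% of counts in the 7 lower-share libraries and 0.0291 to 0.141% in the 5 higher-share ones, without overlap. The share of Krt18 among them was 74.7 to 81.9% in the first and 82.2 to 92.8% in the second, so that the class with fewer keratin counts held relatively more Krt18. The count ratio of Krt18 to Krt8, its type II partner, was 5.28 to 12.8 in the lower-share and 6.58 to 57.6 in the higher-share libraries. The ratio of 57.6 came from the small clones of mouse 3, where Krt8 was at 21.1 CPM while Krt18 was at 1214. Counts assigned to copies were few: Krt8-ps, 98.6% identical, held 12 (0.0762% of those of Krt8) and Gm5200, a copy of Krt18 at 90.45% identity, held 130 (0.116%). These are estimated shares, so they do not show how many reads were ambiguous. Expected counts were not whole in 8 libraries for Krt18 and in 3 for Krt8.

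**Figure D2:**
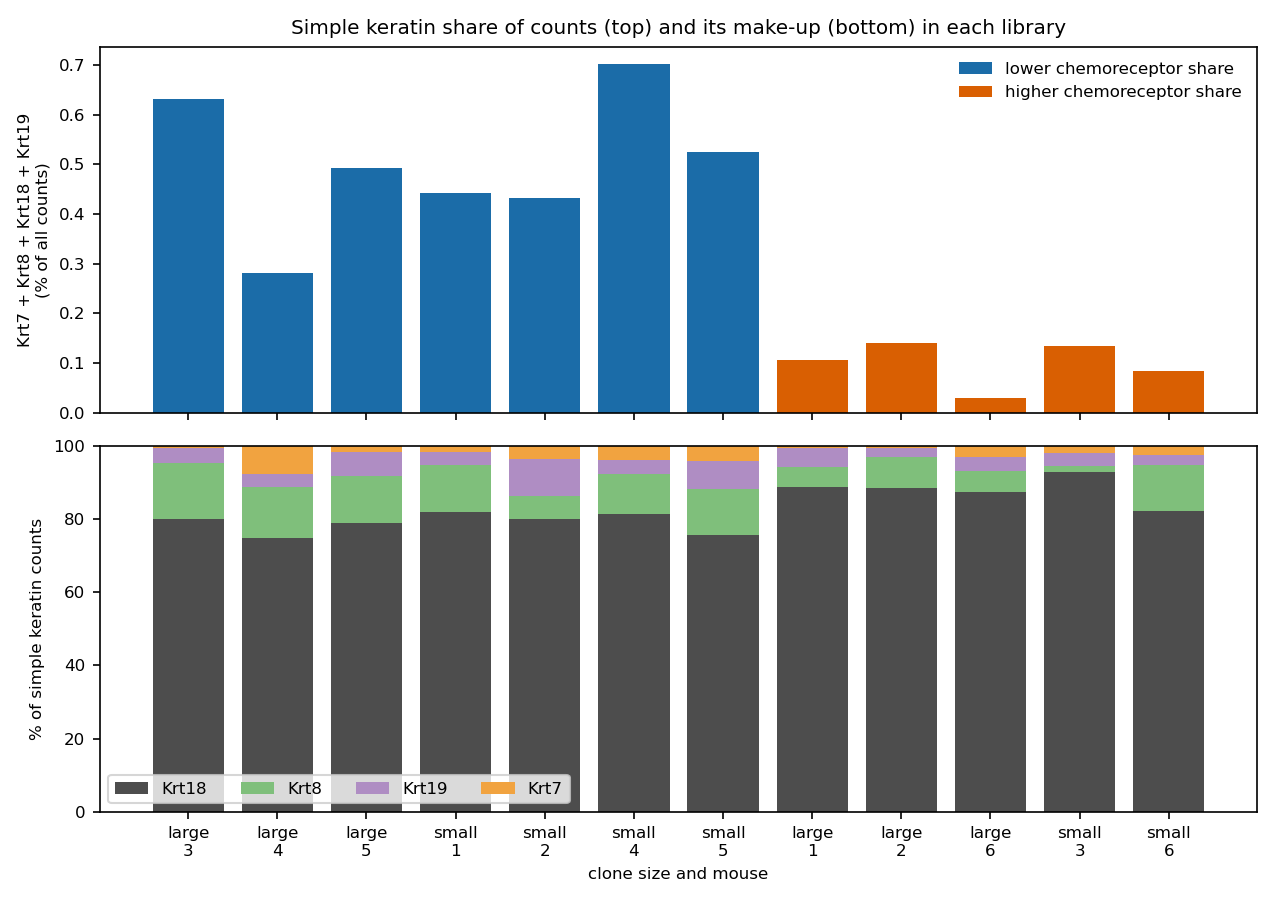
Top, the percent of all counts on Krt7, Krt8, Krt18 and Krt19 in each library, ordered by class of chemoreceptor share. Bottom, the percent of those counts on each keratin. The 7 lower-share libraries sit at 0.281 to 0.701% and the 5 higher-share ones at 0.0291 to 0.141%, and Krt18 makes up 74.7 to 92.8% of the keratin counts.

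Other keratins were scarce. Of 4 further simple keratins, 1 was at 0 in every library and none passed the filter on low counts. Their summed level was at most 36.5 CPM. Of 10 keratins of stratified epithelia 3 were at 0 throughout, and Krt5, the basal cell keratin, had 7 counts in all, spread over 2 libraries. Only Krt10, a suprabasal keratin, passed the filter, with a mean of 12.05 CPM and a log2 fold change of 1.62 (unadjusted p = 0.163, edgeR). Its medians were 4.57 CPM in large and 4.13 in small clones, and its highest large-clone library was at 62.2 CPM. Krt10 was singled out after its values were seen.

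Epcam was low but present in all 12 libraries. Its lowest, median and highest levels were 4.24 (mouse 1), 7.95 and 21.02 CPM (mouse 3) in large clones and 5.67 (mouse 6), 25.6 and 53.0 CPM (mouse 5) in small clones. The 3 highest values were all from small clones (mice 1, 4 and 5), but those of mice 2, 3 and 6 lay within the range of the large clones. Means were 9.44 ± 5.99 CPM (SD, n = 6) in large and 26.3 ± 19.9 in small clones. The log2 fold change of -1.48 (SE 0.78) had an unadjusted p of 0.0768 and an adjusted p of 0.9998 by edgeR, and large clones were lower in 4 of 6 mice.

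Cdh1 held 313 counts over all libraries and did not pass the filter. In large clones it ranged from 0 (mouse 4) through 2.10 to 9.89 CPM (mouse 2), and in small clones from 0.630 (mouse 6) through 11.6 to 28.1 CPM (mouse 5). Large clones were lower in 4 of 6 mice, not in mice 2 and 6, and without the filter the log2 fold change was -1.78 (SE 1.24, adjusted p = 0.646, edgeR). A count of 0 allows up to 3 counts, or 0.585 to 1.33 CPM depending on the library, so several Cdh1 values are near what the depth can show. Expected counts of Cdh1 were also not whole in 7 libraries.

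Among the claudins, Cldn3 predominated. Its counts made up 56.9 to 100% of those of the 3 claudins in the 11 libraries that had any. Cldn3 was at 69.2 CPM in large and 223 in small clones of mouse 1, at 22.6 and 428 in mouse 2, and at 98.1 and 0 in mouse 3. It was at 75.1 and 636 in mouse 4, at 308 and 410 in mouse 5, and at 20.7 and 25.6 in mouse 6. Large clones were lower in 5 of 6 mice, while the small clones of mouse 3 had no count of Cldn3 or Cldn7 at all. The log2 fold change of Cldn3 was -1.54 (SE 1.13, unadjusted p = 0.196, edgeR), or -0.49 with the share as a covariate.

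Cldn7, the partner of Epcam, ranged from 0 (mouse 6) through 18.5 to 74.2 CPM (mouse 3) in large clones and from 0 (mouse 3) through 52.1 to 116 CPM (mouse 5) in small clones. It was again lower in large clones in every mouse but mouse 3, with a log2 fold change of -0.87 (SE 1.28, unadjusted p = 0.508, edgeR). This was -1.78 with the mouse as a block, -1.70 without mouse 3 and -0.13 with the share as a covariate. Cldn4 had 14 counts in all, 9 in the small clones of mouse 1 and 5 in those of mouse 2, and 0 in the other 10 libraries, so no fold change is given. Of 17 further claudins 4 passed the filter, 3 lower and 1 higher in large clones, with a median log2 fold change of -0.20. The lowest p among them was that of Cldn22 (-2.04, SE 1.68, unadjusted p = 0.242, edgeR).

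Tjp1, a long transcript, had 179 counts in all and did not pass the filter. It ranged from 0.195 (mouse 6) through 1.09 to 6.59 CPM (mouse 2) in large clones and from 0.316 (mouse 1) through 2.20 to 23.8 CPM (mouse 3) in small clones. The small clones of mouse 3, the library without Cldn3 and Cldn7 counts, held 53.6% of all Tjp1 counts. The order within mice was split evenly, 3 lower and 3 higher in large clones, and without the filter the log2 fold change was -1.37 (SE 1.30, adjusted p = 0.722, edgeR).

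**Figure D3:**
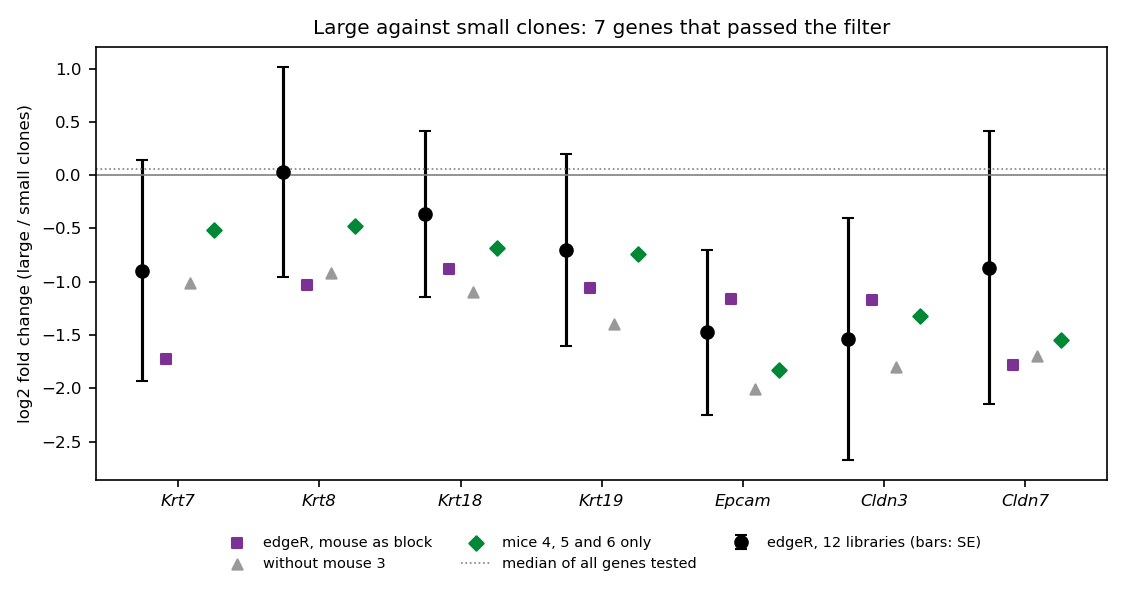
Log2 fold changes, large over small clones, of the 7 genes that passed the filter. Black points with SE bars are the edgeR fit on 12 libraries, squares the fit with the mouse as a block, triangles the fit without mouse 3 and diamonds the fit on mice 4, 5 and 6. The black points run from -1.54 (Cldn3) to 0.03 (Krt8), and the other 3 fits shown all lie below 0.

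Over all genes tested, edgeR called 0 of 10848 (0%) at an adjusted p under 0.05, and 275 (2.54%) had an unadjusted p under 0.05. None of the 7 genes that passed the filter was among either. DESeq2 called 5 genes (0.0461%) and, with the mouse as a block, 43 (0.396%), again none of the 7. In simulated data of the same size edgeR called 0 of 150 genes changed 4-fold and 17 of 150 changed 16-fold. The simulated libraries had no mouse pairs and no classes of chemoreceptor share, so these rates need not hold for the real libraries. Of the 7 genes, 6 had a log2 fold change below 0, against 46.8% of all genes, with a median of -0.87 against 0.06 over all genes. With the mouse as a block 7 of 7 were below 0, against 52.3% of all genes, and the median was -1.16. Adding the chemoreceptor share as a covariate left 6 of 7 below 0, with a median of -0.19. The 3 genes left out by the filter do not enter that count, and the genes share the same libraries, so they are not 7 separate observations.

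Large clones were lower in at least 5 of 6 mice for Krt8, Krt18, Krt19, Cldn3 and Cldn7, 5 of the 7 genes tested, against 13.5% of all genes. The mouse that went the other way was mouse 3 for each of the 5. In mouse 3 the small clones were the higher-share library, whereas in mice 1 and 2 the large clones were. In mice 4, 5 and 6, whose libraries were of the same class, large clones therefore had the lower level of each of these 5 genes. That follows from the count above, with mouse 3 as the exception, and is no separate observation. Over all genes, 17.1% were lower in large clones in all 3 of these mice. The differences in log2(CPM + 1) there were -1.06, -0.32 and -1.52 for Krt18, -0.57, -0.33 and -2.64 for Krt8, and -2.32, -1.14 and -3.20 for Cldn7. In those 3 mice Krt7 and Epcam were each lower in 2 of 3. The fit on those 3 mice, chosen after the data were seen, gave log2 fold changes from -0.48 (Krt8) to -1.83 (Epcam), with no gene passing.

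**Figure D4:**
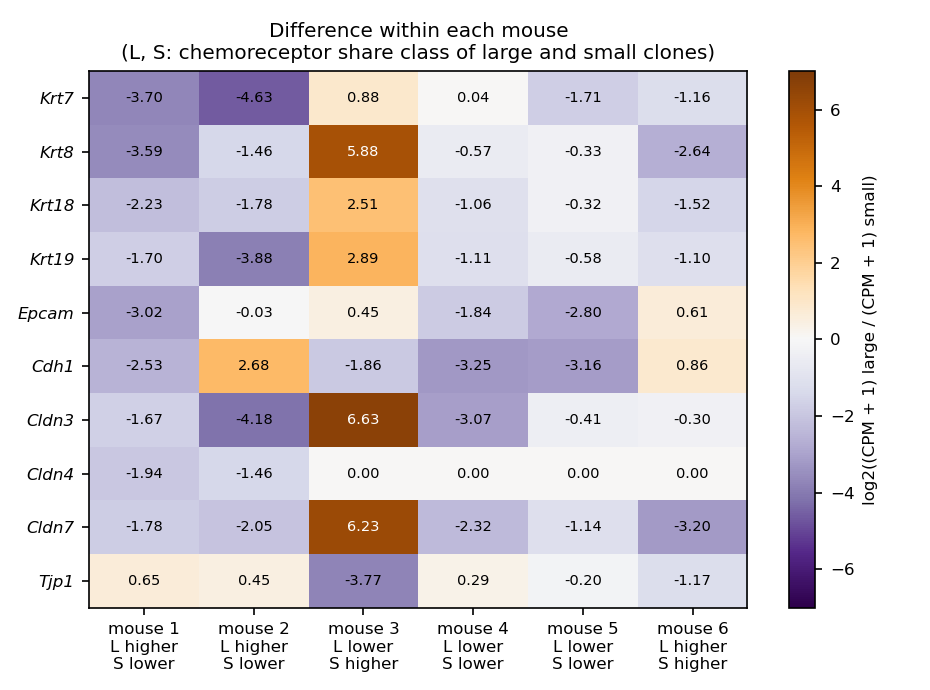
Difference between large and small clones of each mouse in log2(CPM + 1) for the 10 genes. Columns are the 6 mice, with the class of chemoreceptor share of each library under the mouse, and negative values (purple) are lower in large clones. Mouse 3 holds the large positive values, 6.63 for Cldn3, 6.23 for Cldn7 and 5.88 for Krt8, and values in mice 4 and 5 run from -3.25 to 0.29.

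Levels also differed by the class of chemoreceptor share. Krt7, Krt8, Krt18, Krt19 and Cldn3 were higher in all 7 lower-share libraries than in any of the 5 higher-share ones, 5 of the 7 genes tested, against 9.98% of all genes in that direction and 8.62% in the other. Mean CPM was 715 ± 316 (SD, n = 7) against 55.9 ± 42.1 (SD, n = 5) for Krt8, a ratio of 12.8, and 4619 ± 1519 against 777 ± 404 for Krt18, a ratio of 5.94. The ratio was 14.8 for Krt7, 10.3 for Krt19, 11.3 for Cldn3, 8.46 for Cldn7 and 3.08 for Epcam, and the values of Cldn7 and Epcam overlapped between the classes. For Cdh1, which did not pass the filter, the ratio was only 1.44, with overlapping values. For Tjp1 it was 0.311, the reverse, and rested on the small clones of mouse 3. These classes are no groups of the study and the differences have no test. In pooled cells, fewer cells of a type and less RNA per cell cannot be told apart.

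Several marker lists differed by class too, and their part in the keratin and claudin levels was not tested. Summed over 10 markers of ciliated cells the level was 2229 to 8411 CPM in the lower-share and 219 to 884 in the higher-share libraries, and over 7 markers of secretory cells (Krt7 among them) 1459 to 8893 and 607 to 1462. Most of the secretory sum came from Ovgp1 (means 3409 and 479 CPM) and Wfdc2 (734 and 183 CPM). Pax8 stood at means of 22.6 and 15.8 CPM. Wt1 alone of the 7 had its higher mean in the higher-share libraries (74.6 and 167 CPM). Over 8 immune markers the summed level was 47.3 to 122.7 CPM and 133.9 to 360 CPM. The leukocyte marker Ptprc had means of 1.23 and 31.2 CPM. Most of the immune sum came from Ms4a1 (means 50.3 and 109.3 CPM) and Cd3e (5.76 and 67.7 CPM). Cd68, Lyz2 and H2-Aa, each at 0 in at least 7 libraries, had lower means in the higher-share libraries. Over 6 endothelial markers the summed level was 80.3 to 430 and 174 to 466 CPM. Over 8 fibroblast markers it was 94.2 to 1099 and 137.8 to 257 CPM, and over 6 smooth muscle markers 11.9 to 215 and 1.68 to 49.6 CPM. Over 5 mesothelial markers, of which 2 were at 0 in every library, it was at most 12.2 CPM, and over 5 red blood cell markers 238 to 5928 and 33.0 to 2467 CPM. By clone size, the ciliated markers had a median log2 fold change of -0.82, with 9 of the 10 tested lower in large clones, near the -0.87 of the 7 keratin and junction genes. The ciliated median became 0.03 once the chemoreceptor share was in the model. The 6 secretory markers tested had a median of -0.19 (3 lower), the 4 endothelial ones 0.75 (none lower), the 4 immune ones 1.00 (1 lower), the 6 fibroblast ones 0.08 (3 lower) and the 3 red blood cell ones 0.84 (none lower). None of these genes passed at an adjusted p under 0.05, and their part in the comparison of clone sizes was not tested. Mean levels in large and small clones were 23.3 and 4.10 CPM for Ptprc, 96.2 and 60.1 for the endothelial gene Pecam1, 9.70 and 17.1 for the collagen gene Col1a1 and 2.65 and 15.2 for the smooth muscle actin gene Acta2. Medians of Acta2 were only 0.342 and 0.630 CPM, with the highest small-clone library at 68.6 CPM. Dcn (decorin), a fibroblast gene, stood at means of 58.0 and 5.39 CPM (log2 fold change 3.41, unadjusted p = 0.0488, edgeR) and the endothelial receptor gene Kdr at 45.1 and 5.82 CPM (2.94, unadjusted p = 0.0492), both singled out after their values were seen. Medians in large and small clones were 15.7 and 2.22 CPM for Dcn and 7.18 and 3.39 for Kdr. Their highest large-clone values, 280 and 227 CPM, carried most of the large-clone means.

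Genes of the wider junction and keratin machinery lay on both sides of 0. Over 10 lists of related genes, 48 of 94 genes passed the filter, 19 higher and 29 lower in large clones, with a median log2 fold change of -0.14. None passed at an adjusted p under 0.05, and 6 had an unadjusted p under 0.05, which is 12.5% of the 48 against 2.54% of all genes. The share lower in large clones was 60.4%, against 46.8% of all genes. Of 14 tight junction genes 8 were tested, 5 of them higher in large clones (median 0.25), with the scaffold Magi3 at 2.34 (SE 0.84, unadjusted p = 0.0144). Of 12 adherens junction genes 8 were tested, 6 of them lower (median -0.18). Ctnna1, the catenin that links cadherin to actin, stood at -3.27 (SE 1.43, unadjusted p = 0.0375, edgeR). Its medians were 2.47 CPM in large and 8.25 in small clones, and it was at 0 in 2 libraries. The small-clone mean of Ctnna1 was 29.9 CPM, with an SD of 39.8. Of 10 desmosome genes 7 were tested, 4 higher and 3 lower (median 0.04), with the plaque protein Pkp2 at -1.39 (unadjusted p = 0.0893).

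Proteins that bind keratin filaments or link them to the membrane were lower in large clones in 4 of the 4 tested of 5 (median -0.36). Plec (plectin), the linker of intermediate filaments, averaged 166 ± 128 CPM (SD, n = 6) in large and 547 ± 265 in small clones, a log2 fold change of -1.72 (SE 0.67, unadjusted p = 0.0208, edgeR). Of 11 apical polarity genes 8 were tested, 4 in each direction (median -0.08), with Pals1 of the Crumbs complex at -2.05 (SE 0.86, unadjusted p = 0.0304). Of 5 Epcam relatives and proteases 2 were tested, with St14, the protease matriptase, at 0.30 (unadjusted p = 0.605).

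Of 10 epithelial transcription and splicing regulators 5 were tested, 4 of them lower in large clones (median -0.61). Esrp1, which directs epithelial splicing, averaged 3.34 ± 1.68 CPM (SD, n = 6) in large and 40.0 ± 50.1 in small clones, a log2 fold change of -3.57 (SE 1.25, unadjusted p = 0.0125, edgeR). Grhl2, an activator of epithelial junction genes that was singled out after its values were seen, stood at 2.46 (SE 0.93, unadjusted p = 0.0185, edgeR). Its mean over the 12 libraries was 69.1 CPM, and its highest library was at 384 CPM. Of 6 repressors of epithelial genes 2 were tested, 1 in each direction, with Snai2 at -0.16 (unadjusted p = 0.883) and a mean of 2.98 CPM in large and 3.37 in small clones.

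**Figure D5:**
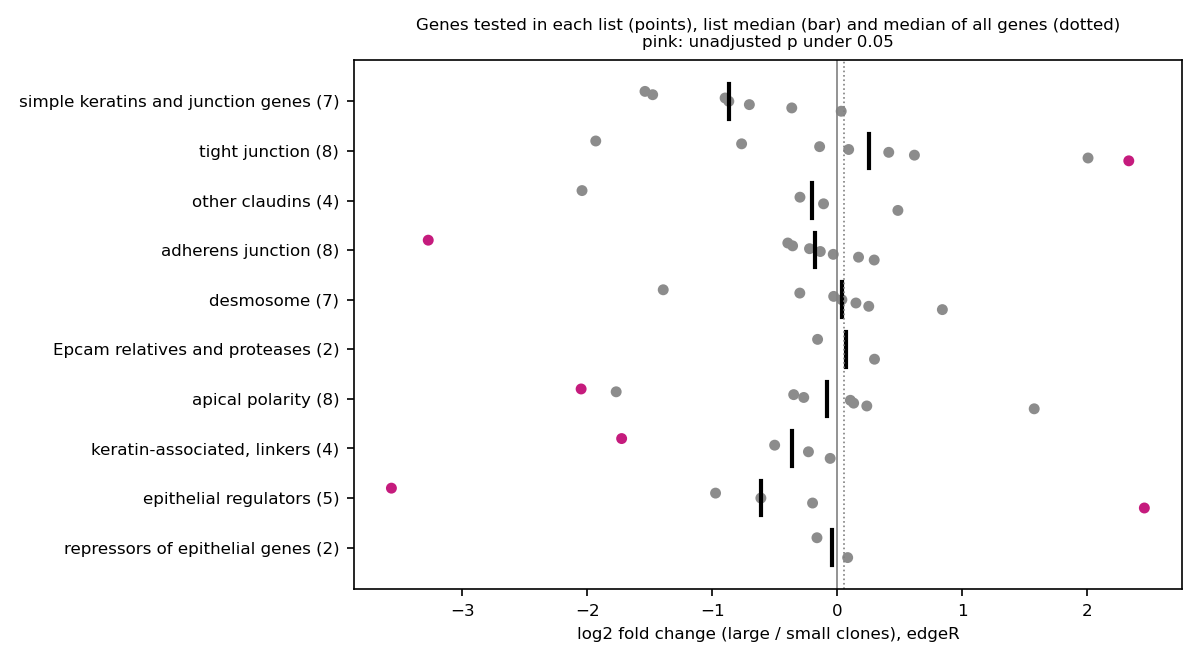
Log2 fold changes, large over small clones, of the 7 keratin and junction genes and of the genes tested in each pathway list (points), with the median of each list (bar) and of all genes (dotted line). Cell marker lists are not shown. The 7 simple keratin and junction genes have a median of -0.87, the pathway lists have medians from -0.61 to 0.25, and the 6 points with an unadjusted p under 0.05 lie on both sides of 0.

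Genes with a profile over the 12 libraries most like that of Krt8 were Eif3l (a subunit of a translation initiation factor), Fmnl3 and Thap3, with mean absolute differences of centred log2(CPM + 1) of 0.40, 0.45 and 0.46. The median over genes was 2.15. Of the other genes of the group, Cldn7 stood at rank 153 (0.72), Krt18 at rank 173 (0.74) and Krt19 at rank 468 (0.89). Ranks are among the genes tested, 10848 in all. The filament partner of Krt8 was thus not among the 3 nearest, but its difference lay far below the median over genes. Genes most like Epcam were Naa35, Wdr13 and Prrc2c, at 0.30, 0.46 and 0.51, against a median over genes of 1.51. For Epcam the nearest of the group was Krt18 at rank 1038 (1.01), and Cldn7 stood at rank 4831 (1.45).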

How the data were processed

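The deposited values are expected counts for each gene in 1 table, not normalized by the authors. RSEM, Bowtie2 and GRCm38 are named, without versions, per the submitters' processing notes. RSEM shares reads of several origins among genes, and 22.7% of entries were not whole. Gene starts in the table equalled those of GENCODE M21 (GRCm38) for 2.96% of 35491 shared identifiers, so the build of the table's coordinates is open and none is printed. The kit keeps no strand, and only Tjp1 overlaps another gene, one with 0 counts. A row without a symbol held 0.133% of counts.

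After rounding, the quasi-likelihood test in edgeR 4.0.16 was applied (R 4.3.3; TMM, filterByExpr, Benjamini-Hochberg over 10848 genes, threshold 0.05). The SE is the log2 fold change over the square root of F. DESeq2 1.42.0, other scalings and filters, subsets of libraries, the chemoreceptor share as a covariate and a mouse block were alternatives. Both libraries of a number came from 1 mouse, per the labels; their deviations from group means correlated at -0.0192, -0.0071, -0.378, 0.2806, 0.5206 and 0.6354 in mice 1 to 6. The limits set by a count of 0 cover counting error only, since amplified reads carry no molecular identifiers. The 6 libraries per size came from separate mice.

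Simulated data (10848 genes, 150 changed per size) gave 0, 0, 5 and 17 calls at 2-fold, 4-fold, 8-fold and 16-fold. The changed genes were drawn at random, and each library was drawn independently, without mouse pairs or share classes. Copies were sought with BLAST 2.17.0 in GENCODE M21 transcripts, whose lengths scale levels.

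The genes, lists and library classes were chosen with earlier results of these data known. Named by rule were all 10 genes, the gene with the lowest p of each pathway list and the 3 genes nearest in profile to Krt8 and to Epcam. The fixed markers Pax8, Ovgp1, Foxj1, Col1a1, Acta2, Pecam1, Ptprc and Krt5 were also named by rule. Grhl2, Krt10, Dcn, Kdr, Wfdc2, Wt1, Ms4a1, Cd3e, Cd68, Lyz2 and H2-Aa were named after their values were seen.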

Additional observations from a re-analysis of the deposited data

How the results depend on the processing

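Under 16 alternatives, 2 of them (mice 4, 5 and 6 only, without and with a block) added after seeing the data, none of the 7 genes tested passed. Of 112 values 103 kept their direction and 9 were reversed. The count of genes called moved from 0 to 5 with DESeq2 and to 43 with DESeq2 and a replicate block, and was 0 in every edgeR fit, the replicate block and each mouse left out included (0 to 0). The log2 fold change of Krt8, 0.03, became -1.03 with the replicate block, -1.04 with DESeq2 and the block, -0.023 without a filter, -0.050 in the higher-share libraries alone, and -0.48 or, with the block, -1.14 in mice 4, 5 and 6. With each mouse left out in turn it ran from -0.92 (without mouse 3) to 0.27. In the higher-share libraries alone Cldn3 was at 1.53 and Cldn7 at 1.20, where 1 small-clone library of 2 had no count of either. Between 5 and 7 of the 7 genes were lower in large clones under each of the 16. Of the 5 genes that DESeq2 called without the block, 4 were also called with it. The list medians moved beyond the spread between mice in 3 of 256 values. Shifts within that spread could still be large. The ciliated median went from -0.82 to 0.03, and that of the 7 genes from -0.87 to -0.19, with the share as a covariate. In the higher-share libraries alone the desmosome median went from 0.04 to -1.12, and that of the other claudins from -0.20 to 1.15. Depth limits Cdh1, Cldn4 and Tjp1 most.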
